A study of Mus musculus with 6 samples.

Results

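Translation initiation factors (eIF), translation elongation factors (eEF) and 6 associated genes were examined in CD11b+ cells from mouse cortex. The members are the genes whose symbol begins with Eif or Eef and a number, without the eIF2 kinases (Eif2ak genes), to which Tpt1, Npm1, Pabpc1, Rack1, Naca and Btf3 were added. The expression table of 16516 genes held 69 members, of which 63 came from the symbol and 6 were added by name. RNA-seq was performed on 3 4LPS samples and 3 NS samples, all from male wild-type C57BL6/J mice aged 8 to 10 weeks. The 4LPS mice had received lipopolysaccharide (LPS, a cell wall component of Gram-negative bacteria, here from E. coli) at 500 µg/kg intraperitoneally on each of 4 days. The NS mice had received normal saline on the same schedule. Cells were taken from the cortex on day 7 with magnetic beads against CD11b, an integrin chain of microglia, other myeloid cells and natural killer (NK) cells. Each sample pooled the cells of 2 mice, so single animals cannot be compared.

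Initiation factors bring the small ribosomal subunit, the initiator tRNA and the capped mRNA together, scan to the start codon and let the large subunit join. Elongation factors then carry each aminoacyl-tRNA to the ribosome and move the ribosome along the mRNA. Some of these factors, and nearly all ribosomal proteins, are encoded by mRNAs that begin with a C followed by a run of pyrimidines (5′ terminal oligopyrimidine or TOP mRNAs), whose translation is set by mTORC1 and Larp1. The TOP class was defined mostly in human cells. Of the members, 16 were taken as the TOP list: Eef1a1, Eef1b2, Eef1d, Eef1g, Eef2, Eif3a, Eif3e, Eif3f, Eif3h, Eif4b and the 6 added genes. This list was drawn from general knowledge with earlier results of these data known.

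Total counts were 15164123 to 15462396 in 4LPS samples and 15158342 to 15746606 in NS samples, so depth was nearly equal between groups. Levels are given in CPM (counts scaled to an equal library total after TMM scaling, which adjusts each library for its composition), and levels are set against each other between genes only in FPKM, which is scaled for gene length. Microglia, the cell type named by the labels, were present, and the summed level of 8 of their markers was 40900 to 41450 CPM in 4LPS samples and 41810 to 44690 CPM in NS samples. For 6 of these 8 markers (75%) every 4LPS sample lay below every NS sample, beside 17.5% of all tested genes. P2ry12 alone was called lower (12.5%, beside 6.43% of all tested genes). NK and T cell markers moved with the treatment, since their summed level over 11 genes was 125 to 143 CPM in 4LPS samples and 5.91 to 11.6 CPM in NS samples, and all 8 that were tested were higher in 4LPS. No marker of these lists was at 0 in all samples. The summed level of 6 dendritic cell markers was also higher (21.7 to 25.5 CPM in 4LPS samples, 7.16 to 11.9 CPM in NS samples, 5 called higher). So was that of 6 proliferation markers (31.05 to 46.2 CPM in 4LPS samples, 18.9 to 30.5 CPM in NS samples, 2 called higher). The sum of 5 B cell markers was 21.3 to 21.4 CPM in 4LPS samples and 13.9 to 18.95 CPM in NS samples, but only 1 of them was tested and 0 were called. The summed level of 6 endothelial markers was lower (158 to 304 CPM in 4LPS samples, 336 to 574 CPM in NS samples, 2 called lower). So was that of 6 astrocyte markers (200.5 to 229 CPM in 4LPS samples, 267 to 278 CPM in NS samples, 2 called lower). The sum of 8 neuronal markers was 8.43 to 11.01 CPM in 4LPS samples and 12.6 to 15.67 CPM in NS samples, with 0 of 7 tested called. Neutrophil markers overlapped between groups, at 475 to 1125 CPM in 4LPS samples and 183 to 723 CPM in NS samples over 8 genes, all with a positive log2 fold change and 0 called. Summed monocyte markers also overlapped (119 to 221 CPM in 4LPS samples, 97.0 to 185 CPM in NS samples). The same was true of border macrophage markers (182 to 416 CPM in 4LPS samples, 230 to 322 CPM in NS samples, 1 called higher). Oligodendrocyte markers overlapped as well (301 to 388 CPM in 4LPS samples, 354 to 570 CPM in NS samples). Within NS, replicate 3 stood apart from replicates 1 and 2, with a chi-square per gene (1 if counts differed by sampling alone) of 23.2 and 20.3 against them and of 5.68 between replicates 1 and 2. Choroid plexus markers were also uneven, at 2191, 1.83 and 524 CPM in 4LPS samples and 6499, 5660 and 645.5 CPM in NS samples. The part of these cell admixtures in the results below was not tested. In bulk samples, fewer cells of a type and less RNA per cell cannot be told apart.

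Of the 69 members, 68 passed the filter on low counts and were tested with edgeR's quasi-likelihood test, with p-values adjusted by the Benjamini-Hochberg method over all 13151 genes tested. A gene is called higher or lower at an adjusted p under 0.05. Among the members, 20 (29.4%) were higher in 4LPS and 0 were lower, whereas 9.95% of all tested genes were higher and 6.43% were lower. The 6 added genes were put into the rule with results of these data known. Of the 62 tested members chosen by their symbol alone, 14 (22.6%) were higher and 0 were lower. At an unadjusted p under 0.05 by edgeR, 28 of the 68 members were higher and 2 were lower, beside 2309 and 2117 of all 13151 tested genes. DESeq2 and limma-voom called 0 members lower, limma on log2(FPKM + 1) and edgeR without the TMM factor each called 4, all from outside the TOP list. In 30 members (44.1%) every 4LPS sample lay above every NS sample, beside 19.9% of all tested genes, and in 4 members (5.88%) every 4LPS sample lay below, beside 17.5%. The median log2 fold change of 4LPS over NS was 0.09 over the members and −0.02 over all tested genes, and without the TMM factor these medians were −0.0089 and −0.11.

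The calls were divided unevenly between the TOP list and the other members. Since the TOP list was drawn with earlier results of these data known, this division is a description only. All 16 genes of the TOP list were higher in 4LPS, with no overlap between groups, a median log2 fold change of 0.63 (1.55-fold) and a range of 0.34 to 1.13. Of the 52 other members tested, 4 (7.69%) were higher and 0 were lower by edgeR, beside 9.95% and 6.43% of all tested genes. In 14 of the 52 (26.9%) every 4LPS sample lay above every NS sample, beside 19.9%. In 4 of the 52 (7.69%) every 4LPS sample lay below, beside 17.5%. Their median was 0.04, and it turned to −0.055 without the TMM factor. The 4 called higher were Eif3k, Eif5b, Eif4g1 and Eif2s3x. Of the 48 members that were not called, 43 had a 95% interval within 0.5 of zero on the log2 scale, so changes of that size lay outside their intervals. The remaining member, Eef1akmt4-ece2, is a readthrough of Eef1akmt4 into its neighbour, and it was not tested, with 0, 11.4 and 0 counts in 4LPS samples and 3.48, 4.89 and 0 counts in NS samples.

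**Figure D1:**
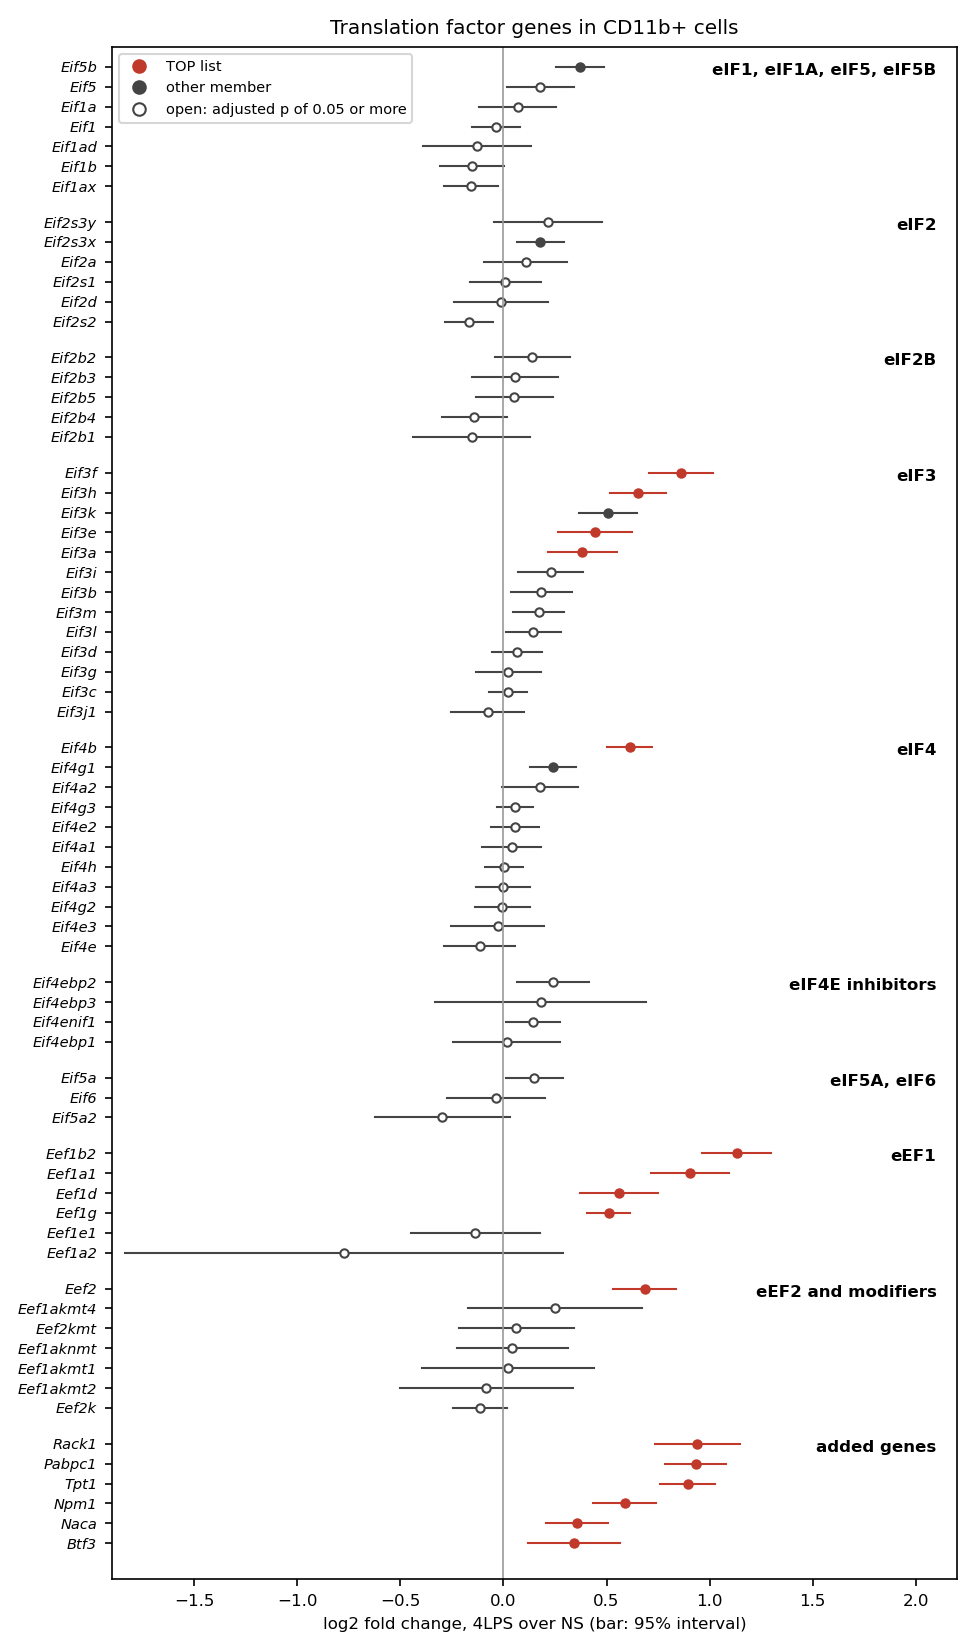
Log2 fold change of 4LPS over NS for the 68 tested members, by role, with 95% intervals from edgeR (n = 3 samples each). Red marks the TOP list, grey the other members, and filled points an adjusted p under 0.05. All 16 TOP list genes lie to the right of zero, from 0.34 to 1.13, and 48 of the other members are open points.

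Annotated transcription starts were read to see how many members carry the pyrimidine start itself. RefSeq starts (GRCm38.p6) were matched for 54 of the 69 members, 10 of them in the TOP list. The letters searched were a C followed by at least 4 further C or T, on the sense strand only, and Rack1, Eif3f and Eif2s3x had such a run beginning exactly at an annotated start (5.56% of 54 members). All 3 were called higher in 4LPS, beside 14 of the 54 matched members and 9.95% of all tested genes. However, Rack1 and Eif3f are in the TOP list, which was drawn with results of these data known. The Eif2s3x call held in 4 of 20 alternatives. The run stood at the start of 3.01% of the 27025 genes in the RefSeq table. A link between the run and the change in level was not tested. Within 5 bases of the start the run was found in 4 of 10 TOP list genes (40%), 9 of 44 other members (20.5%) and 21.2% of all genes in the table. By call, it was found within 5 bases in 6 of 14 matched members called higher (42.9%) and 7 of 39 not called (17.9%). The 7 not called were Eif2s3y (12 bases, from base 2), Eif2b2, Eif2b5, Eif3b, Eif3l, Eif4enif1 and Eif1ad. Among all tested genes with a matched start the run was found in 23.8%. Windows of 30 bases have 15 before the start and 15 from it. They are given for genes that were higher with a run (capitals) at or near the start. Windows are also given for Eef1a1's partner subunit Eef1b2, for Tpt1 and for the helicase gene Eif4a1, which had no run there. Windows were chosen by run and call, so they do not show how often a run goes with a call.
Rack1, chr11:48800345-48800374, plus strand: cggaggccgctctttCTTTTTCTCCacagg
Eif3f, chr7:108934400-108934429, plus strand: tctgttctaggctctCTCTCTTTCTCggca
Eif2s3x, chrX:94212637-94212666, minus strand: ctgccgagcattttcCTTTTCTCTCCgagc
Eef1a1, chr9:78481710-78481739, minus strand: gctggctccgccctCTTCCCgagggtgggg
Naca, chr10:128035331-128035360, plus strand: gcaactcgttCTCTTaaagaggaaacccgg
Eif4g1, chr16:20672712-20672741, plus strand: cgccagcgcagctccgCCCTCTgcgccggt
Eef1b2, chr1:63176816-63176845, plus strand: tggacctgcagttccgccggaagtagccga
Tpt1, chr14:75845241-75845270, plus strand: gtcaccgctgacgacagttccgggggagcc
Eif4a1, chr11:69672409-69672438, minus strand: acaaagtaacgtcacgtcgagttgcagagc
An annotated start need not be the capped base, so a run elsewhere in a window, or none, says nothing on the start of the mRNA in these cells.

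The single gene with the largest fold change of the tested members, Eef1b2, belongs to the eEF1 group. Of the 6 genes of this group, 4 (66.7%) were higher, beside 9.95% of all tested genes. eEF1A, the GTPase that carries aminoacyl-tRNA to the ribosome, comes from Eef1a1 in most cells and from Eef1a2 in neurons and muscle. Eef1a1 had 6537, 6879 and 7104 CPM in 4LPS samples, against 3382, 3645 and 3919 CPM in NS samples (log2 fold change 0.91, SE 0.082, edgeR adjusted p = 3.49e-04). The lowest 4LPS sample was far above the highest NS sample. Eef1a1 was the most abundant member, with 4395 FPKM in 4LPS samples and 2501 FPKM in NS samples. Eef1a2 had 0.405, 0.680 and 1.29 CPM in 4LPS samples, against 1.83, 1.07 and 1.18 CPM in NS samples (log2 fold change −0.77, SE 0.46, edgeR adjusted p = 0.271). Its groups overlapped, and at 6 to 29 counts per sample a difference would have been hard to detect.

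The eEF1B subunits form the complex that exchanges GDP for GTP on eEF1A. Eef1b2, the exchange subunit beta, had 259.8, 296 and 288 CPM in 4LPS samples, against 118, 130.5 and 137 CPM in NS samples (log2 fold change 1.13, SE 0.072, edgeR adjusted p = 6.69e-05). The groups were far apart, and this was the largest fold change of the tested members (2.19-fold). Eef1d, the delta subunit, had 106, 107 and 107 CPM in 4LPS samples, against 63.1, 79.5 and 74.3 CPM in NS samples (log2 fold change 0.56, SE 0.082, edgeR adjusted p = 0.00388). Eef1g, the scaffold of the exchange complex, had 202, 206 and 216 CPM in 4LPS samples, against 145, 144 and 150.1 CPM in NS samples (log2 fold change 0.51, SE 0.045, edgeR adjusted p = 3.33e-04). In both genes the groups were apart, and the 4LPS samples of Eef1d were nearly equal. Eef1e1, which belongs to the multi-tRNA-synthetase complex rather than to the exchange factor, was not called, with a 95% interval of −0.45 to 0.18.

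Eef2 encodes the GTPase that moves the ribosome by one codon, and Eef2k encodes the kinase that inhibits it. Eef2 had 1920.3, 1918 and 2102 CPM in 4LPS samples, against 1193, 1289 and 1215 CPM in NS samples (log2 fold change 0.68, SE 0.066, edgeR adjusted p = 4.54e-04). Eef2k had 279, 263 and 264 CPM in 4LPS samples, against 274, 311 and 288 CPM in NS samples (log2 fold change −0.11, SE 0.057, edgeR adjusted p = 0.204). The groups were apart for Eef2 and overlapped for Eef2k. Ratios of members within a sample do not depend on library scaling, and those given here were chosen after the values were seen. The FPKM ratio of Eef2k to Eef2 was 0.0676, 0.0639 and 0.0582 in 4LPS samples and 0.107, 0.112 and 0.11 in NS samples. Each 4LPS ratio was below each NS ratio. Its exact two-sided permutation p was 0.1, the smallest that 3 samples against 3 allow.

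Of the 5 methyltransferase genes that modify eEF1A or eEF2, 0 were called by edgeR, by DESeq2 or by limma-voom. In edgeR, 0 had an unadjusted p under 0.05. Over all tested genes edgeR called 9.95% higher and 6.43% lower, so with 5 genes this does not set the group apart. Eef1akmt4, which methylates a lysine of eEF1A, had 4.25, 3.67 and 4.0 CPM in 4LPS samples, against 3.40, 3.58 and 3.04 CPM in NS samples (log2 fold change 0.25, SE 0.18, edgeR adjusted p = 0.363). Its groups did not overlap, but its reads overlap the readthrough gene, so its level is uncertain. Eef2kmt, which methylates a lysine of eEF2, had 14.97, 12.4 and 14.1 CPM in 4LPS samples, against 14.6, 13.4 and 11.8 CPM in NS samples (log2 fold change 0.062, SE 0.12, edgeR adjusted p = 0.753). Its groups overlapped. Levels of these enzymes were low, and the other methyltransferase genes had intervals that included zero.

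**Figure D2:**
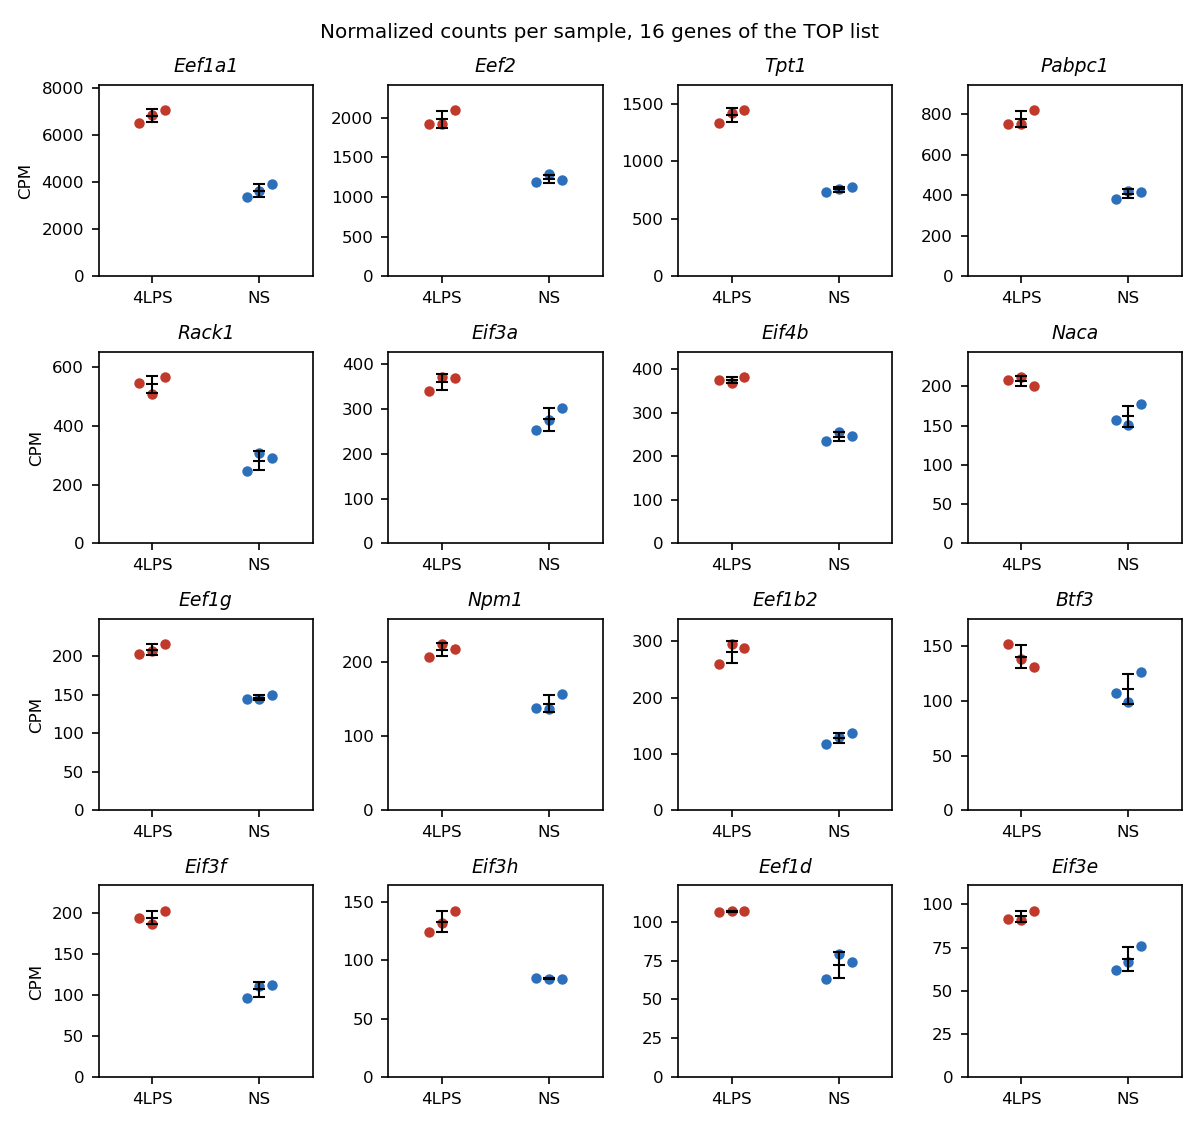
TMM-normalized CPM of the 16 TOP list genes, by group (4LPS, then NS), with 1 point per sample and the mean and SD (n = 3 each). Each panel has its own axis from 0. In every panel the 4LPS points lie above the NS points, most narrowly for Btf3 (131 CPM in the lowest 4LPS sample, 126 CPM in the highest NS sample).

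The 6 added genes were all higher. They are themselves part of the TOP list, and since they were chosen with results known their count supports nothing further. Tpt1, the translationally controlled tumor protein, had 1338, 1425 and 1452 CPM in 4LPS samples, against 733, 762 and 774 CPM in NS samples (log2 fold change 0.89, SE 0.058, edgeR adjusted p = 6.80e-05). Pabpc1, the poly(A)-binding protein that bridges the mRNA tail to eIF4G, had 755, 752 and 824 CPM in 4LPS samples, against 382, 421 and 419 CPM in NS samples (log2 fold change 0.93, SE 0.063, edgeR adjusted p = 8.53e-05). Rack1, a scaffold on the small ribosomal subunit, had 546, 510.01 and 569 CPM in 4LPS samples, against 246, 309 and 291 CPM in NS samples (log2 fold change 0.94, SE 0.088, edgeR adjusted p = 4.13e-04). For these 3 genes every 4LPS sample was far above every NS sample.

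Npm1, a nucleolar chaperone of ribosome assembly, had 208, 225 and 218 CPM in 4LPS samples, against 138, 137 and 158 CPM in NS samples (log2 fold change 0.59, SE 0.066, edgeR adjusted p = 0.00104). Naca and Btf3 are the alpha and beta subunits of the nascent polypeptide-associated complex, which binds new chains at the ribosome exit. Naca had 208, 213 and 201 CPM in 4LPS samples, against 157, 151 and 177 CPM in NS samples (log2 fold change 0.36, SE 0.065, edgeR adjusted p = 0.0098). Btf3 had 152, 138 and 131 CPM in 4LPS samples, against 107, 98.8 and 126 CPM in NS samples (log2 fold change 0.34, SE 0.096, edgeR adjusted p = 0.0474). NS replicate 3 was the highest NS sample in all 3 genes, and for Btf3 it came close to the lowest 4LPS sample. Btf3 was called in 1 of the 6 fits that left out a sample, the one without NS replicate 3 (edgeR adjusted p = 0.0068). The FPKM ratio of Naca to Btf3 was 1.03 ± 0.0695 in 4LPS samples and 1.02 ± 0.0482 in NS samples (SD, n = 3 each, exact two-sided permutation p = 0.9), and the ratio overlapped between groups. Tpt1, Rack1, Npm1, Naca and Eef1a1 have processed copies elsewhere in the mouse genome, and RSEM divides shared reads between genes, so their absolute levels are uncertain.

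Of the factors that scan and set the start codon, 1 of 7 (14.3%) was higher, beside 9.95% of all tested genes. Eif5b, the GTPase that joins the large subunit, had 125, 125 and 118 CPM in 4LPS samples, against 91.4, 97.7 and 94.9 CPM in NS samples (log2 fold change 0.37, SE 0.05, edgeR adjusted p = 0.00267). The groups were apart, and the call held in each of the 6 fits that left out a sample. Eif5, the GTPase-activating protein of eIF2, had 243, 246 and 250.5 CPM in 4LPS samples, against 204, 206 and 243 CPM in NS samples (log2 fold change 0.18, SE 0.07, edgeR adjusted p = 0.117). The 4LPS samples lay together, and NS replicate 3 was close below them, apart from the other NS samples. Without that replicate Eif5 was called higher (edgeR adjusted p = 0.00585).

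Eif1 and Eif1b encode near-identical forms of the start codon fidelity factor eIF1. Eif1 had 208, 228 and 213 CPM in 4LPS samples, against 215, 223 and 228 CPM in NS samples (log2 fold change −0.035, SE 0.05, edgeR adjusted p = 0.657). Eif1b had 40.3, 41.2 and 36.9 CPM in 4LPS samples, against 42.7, 43.3 and 45.7 CPM in NS samples (log2 fold change −0.15, SE 0.067, edgeR adjusted p = 0.149). The Eif1b groups were apart, with 4LPS below, those of Eif1 overlapped, and neither gene was called. Eif1ax, an X-linked gene for eIF1A, which binds the ribosomal A site during scanning, had 39.7, 39.7 and 41.8 CPM in 4LPS samples, against 45.8, 44.2 and 45.1 CPM in NS samples (log2 fold change −0.16, SE 0.056, edgeR adjusted p = 0.0983). Its 4LPS samples were again all below the NS samples without passing the adjusted threshold. Limma on log2(FPKM + 1), which carries no composition factor, called Eif1ax and Eif1b lower.

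The eIF2 complex delivers the initiator methionyl-tRNA. Of 6 genes of this group, 1 (16.7%) was called higher, beside 9.95% of all tested genes. Eif2s3x, the X-linked gene of the gamma subunit, had 121, 119 and 117 CPM in 4LPS samples, against 101, 109 and 105 CPM in NS samples (log2 fold change 0.18, SE 0.05, edgeR adjusted p = 0.0456). Its Y-linked copy Eif2s3y had 43.8, 58.9 and 54.7 CPM in 4LPS samples, against 43.4, 43.1 and 49.1 CPM in NS samples (log2 fold change 0.22, SE 0.11, edgeR adjusted p = 0.217). The Eif2s3x groups were apart and those of Eif2s3y overlapped. The Eif2s3x call was close to the threshold, and it was lost in each of the 6 fits that left out a sample (edgeR adjusted p = 0.0507 to 0.133). Eif2s2, the beta subunit, had 87.2, 87.2 and 84.4 CPM in 4LPS samples, against 100.3, 92.9 and 97.7 CPM in NS samples (log2 fold change −0.17, SE 0.051, edgeR adjusted p = 0.0578). The 4LPS samples were all below the NS samples, so the beta and gamma subunit genes lay on opposite sides of zero, and Eif2s2 lay near the threshold. It was called lower in 6 of 20 alternatives, which were edgeR with upper-quartile factors (edgeR adjusted p = 0.0395), without a composition factor (0.0153) or with the gene length correction (0.0482) and the 3 limma fits on log2 FPKM, and it was not called by DESeq2, limma-voom or any fit that left out a sample. Eif2a, which is a separate initiation protein and not the alpha subunit, had 36.6, 31.3 and 32.3 CPM in 4LPS samples, against 28.7, 31.6 and 32.7 CPM in NS samples (log2 fold change 0.11, SE 0.088, edgeR adjusted p = 0.422). Its groups overlapped. Eif2s1, which encodes the alpha subunit phosphorylated in the stress response, had a 95% interval of −0.16 to 0.18.

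eIF2B recharges eIF2 with GTP, and 0 of its 5 subunit genes were called by edgeR, DESeq2 or limma-voom. By edgeR, 0 had an unadjusted p under 0.05. Over all tested genes edgeR called 9.95% higher and 6.43% lower, so with 5 genes this does not set the group apart. Eif2b4, the delta subunit, had 32.04, 31.0 and 29.4 CPM in 4LPS samples, against 33.4, 35.3 and 33.1 CPM in NS samples (log2 fold change −0.14, SE 0.069, edgeR adjusted p = 0.19). Eif2b2, the beta subunit, had 28.1, 27.9 and 28.3 CPM in 4LPS samples, against 25.99, 27.04 and 23.4 CPM in NS samples (log2 fold change 0.14, SE 0.079, edgeR adjusted p = 0.248). Neither pair of groups overlapped, with 4LPS below NS for Eif2b4 and above NS for Eif2b2, and limma on log2(FPKM + 1) called Eif2b4 lower. Eif2b1, the alpha subunit, had 15.04, 15.6 and 12.5 CPM in 4LPS samples, against 16.9, 17.04 and 14.2 CPM in NS samples (log2 fold change −0.15, SE 0.12, edgeR adjusted p = 0.409). Eif2b5, the catalytic epsilon subunit, had 41.3, 46.8 and 45.97 CPM in 4LPS samples, against 41.3, 47.1 and 40.8 CPM in NS samples (log2 fold change 0.053, SE 0.081, edgeR adjusted p = 0.683). These 2 genes overlapped between groups.

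eIF3 is the largest initiation factor and binds the small ribosomal subunit to eIF4G, and its 13 subunit genes did not move as one. Of these, 5 were higher in 4LPS (38.5%, beside 9.95% of all tested genes). All 4LPS samples lay above all NS samples in 9 (69.2%, beside 19.9%). A positive log2 fold change was seen in 12, beside 6217 of all 13151 tested genes. Eif3f had 193, 186 and 202 CPM in 4LPS samples, against 96.9, 111 and 112 CPM in NS samples (log2 fold change 0.86, SE 0.067, edgeR adjusted p = 1.77e-04). Eif3h had 125, 132 and 143 CPM in 4LPS samples, against 85.2, 84.2 and 84.4 CPM in NS samples (log2 fold change 0.65, SE 0.059, edgeR adjusted p = 3.45e-04). Eif3f and Eif3h encode the paired MPN-domain subunits, and they had the largest changes of the complex, with wide gaps between groups. Eif3k, a PCI-domain subunit outside the TOP list, had 68.7, 63.01 and 65.3 CPM in 4LPS samples, against 47.9, 46.5 and 44.1 CPM in NS samples (log2 fold change 0.51, SE 0.06, edgeR adjusted p = 0.00142). Eif3e, another PCI-domain subunit, had 91.7, 90.7 and 96.4 CPM in 4LPS samples, against 62.1, 66.8 and 75.9 CPM in NS samples (log2 fold change 0.44, SE 0.078, edgeR adjusted p = 0.00848). Eif3a, the largest subunit and scaffold, had 340.2, 373 and 371 CPM in 4LPS samples, against 253, 276 and 303 CPM in NS samples (log2 fold change 0.38, SE 0.072, edgeR adjusted p = 0.0115). In each of these 3 genes the groups were apart, and in Eif3e and Eif3a NS replicate 3 was the highest NS sample. Eif3a was named after its values were seen, as the remaining call of the complex.

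The 8 eIF3 genes not called ran from −0.076 (Eif3j1) to 0.23 (Eif3i) on the log2 scale. Eif3i, Eif3m, Eif3b and Eif3l had groups that did not overlap, and Eif3i was called higher without NS replicate 2 (edgeR adjusted p = 0.0428). Eif3j1, the loosely bound subunit, had 71.7, 74.3 and 68.3 CPM in 4LPS samples, against 71.2, 71.2 and 83.5 CPM in NS samples (log2 fold change −0.076, SE 0.076, edgeR adjusted p = 0.517). Its groups overlapped. Eif3c, a core PCI subunit, had a 95% interval of −0.071 to 0.11, which lies below the interval of Eif3f (0.70 to 1.02). Per gene length, Eif3f had 153 FPKM in 4LPS samples and 89.97 FPKM in NS samples, and Eif3c had 74.2 FPKM in 4LPS samples and 78.1 FPKM in NS samples. FPKM carries no composition factor, and on the log2(FPKM + 1) scale the median difference over all genes was −0.08, against −0.02 in the edgeR fit. The summed FPKM of the 4 TOP list subunits over that of the other 9 was 0.754, 0.765 and 0.812 in 4LPS samples and 0.543, 0.556 and 0.59 in NS samples. This ratio did not overlap between groups (exact two-sided permutation p = 0.1, the smallest possible).

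**Figure D3:**
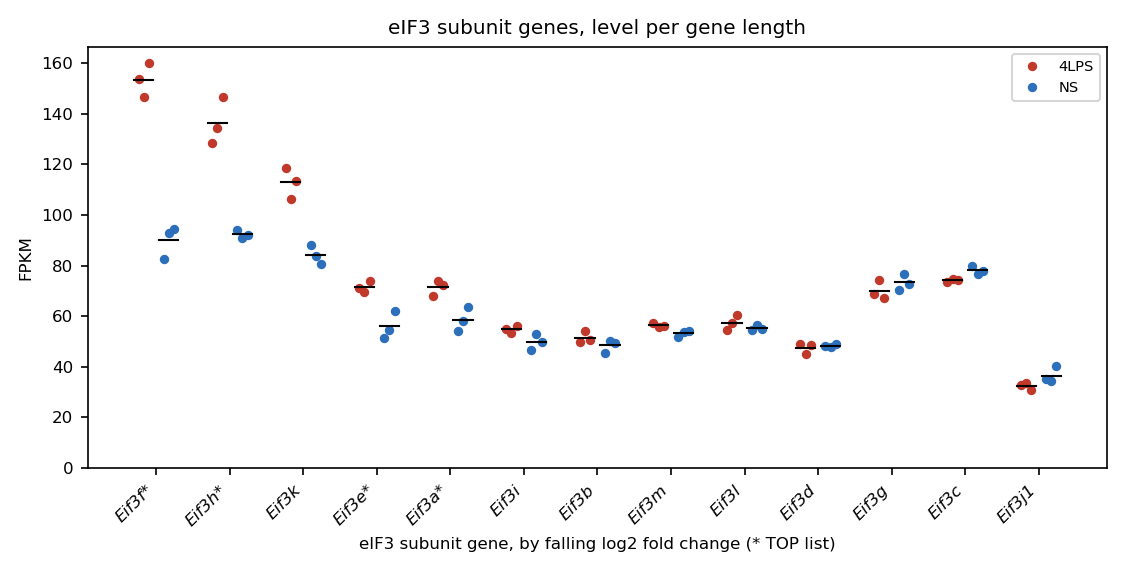
FPKM of the 13 eIF3 subunit genes in each sample, 4LPS (red) left of NS (blue), with the group mean as a bar and the genes ordered by falling log2 fold change. Asterisks mark the TOP list. Eif3f averaged 153 FPKM in 4LPS samples and 89.97 FPKM in NS samples, while Eif3d, Eif3g and Eif3c had similar levels in both groups.

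eIF4 recognises the cap, unwinds the leader and holds the mRNA. Of its 11 genes, 2 (18.2%) were higher, beside 9.95% of all tested genes. Eif4b, the cofactor of the eIF4A helicase, had 375, 369 and 384 CPM in 4LPS samples, against 235, 256 and 246 CPM in NS samples (log2 fold change 0.61, SE 0.047, edgeR adjusted p = 1.60e-04). Eif4g1, the scaffold that joins eIF4E, eIF4A and eIF3, had 399, 409 and 425 CPM in 4LPS samples, against 352, 358 and 334 CPM in NS samples (log2 fold change 0.24, SE 0.048, edgeR adjusted p = 0.0145). Both were apart between groups, but the change of Eif4g1 was 1.18-fold, and its call was lost without 4LPS replicate 2 (edgeR adjusted p = 0.0522) or 4LPS replicate 3 (edgeR adjusted p = 0.0545). Eif4a1, the main helicase, had 313, 315 and 310.5 CPM in 4LPS samples, against 276, 319 and 317 CPM in NS samples (log2 fold change 0.041, SE 0.061, edgeR adjusted p = 0.681). Eif4a2, its close paralogue, had 379.6, 416 and 390.3 CPM in 4LPS samples, against 349, 313 and 387 CPM in NS samples (log2 fold change 0.18, SE 0.08, edgeR adjusted p = 0.164). Eif4e, the cap-binding protein itself, had 55.3, 60.8 and 55.9 CPM in 4LPS samples, against 57.9, 60.9 and 67.5 CPM in NS samples (log2 fold change −0.12, SE 0.074, edgeR adjusted p = 0.305). All 3 overlapped between groups. Within a sample the FPKM ratio of Eif4b to Eif4a1 was 0.536, 0.526 and 0.549 in 4LPS samples and 0.381, 0.36 and 0.347 in NS samples, so the cofactor stood higher relative to its helicase in every 4LPS sample. The FPKM ratio of Pabpc1 to its partner Eif4g1 was likewise 3.83 ± 0.114 in 4LPS samples and 2.38 ± 0.175 in NS samples (SD, n = 3 each), without overlap. The 9 eIF4 genes not called ran from −0.12 (Eif4e) to 0.18 (Eif4a2) on the log2 scale.

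The genes that restrain eIF4E were not called (0 of 4 by edgeR, DESeq2 or limma-voom). Over all tested genes edgeR called 9.95% higher and 6.43% lower, so with 4 genes this does not set the group apart. At an unadjusted p under 0.05 by edgeR, 2 of the 4 were higher, beside 2309 of all 13151 tested genes. Eif4ebp1, a binding protein that mTORC1 phosphorylates, had 11.3, 13.1 and 14.04 CPM in 4LPS samples, against 12.6, 13.1 and 12.2 CPM in NS samples (log2 fold change 0.016, SE 0.11, edgeR adjusted p = 0.936). Eif4ebp2, the form known from brain, had 50.1, 50.9 and 53.2 CPM in 4LPS samples, against 40.4, 47.8 and 42.2 CPM in NS samples (log2 fold change 0.24, SE 0.075, edgeR adjusted p = 0.0641). Eif4ebp3, the least expressed of them per length, had 3.84, 3.74 and 2.71 CPM in 4LPS samples, against 3.02, 3.33 and 2.73 CPM in NS samples (log2 fold change 0.18, SE 0.22, edgeR adjusted p = 0.602). The groups did not overlap for Eif4ebp2 and overlapped for the other binding protein genes. Per length Eif4ebp2 had 33.1 FPKM in 4LPS samples and 29.8 FPKM in NS samples. Eif4enif1, the eIF4E transporter that binds eIF4E on repressed mRNAs, had 57.3, 53.4 and 54.9 CPM in 4LPS samples, against 48.4, 51.4 and 50.4 CPM in NS samples (log2 fold change 0.14, SE 0.057, edgeR adjusted p = 0.126). Its groups did not overlap either. Without NS replicate 2, Eif4ebp2 was called higher (edgeR adjusted p = 0.0288).

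eIF5A, which relieves stalled ribosomes, and eIF6, which keeps the ribosomal subunits apart, made up the last initiation group. Of its 3 genes, 0 were called by edgeR, DESeq2 or limma-voom, and 1 was higher at an unadjusted p under 0.05 by edgeR. Over all tested genes edgeR called 9.95% higher and 6.43% lower, so with 3 genes this does not set the group apart. Eif5a had 156, 163 and 175 CPM in 4LPS samples, against 143, 157 and 146 CPM in NS samples (log2 fold change 0.15, SE 0.059, edgeR adjusted p = 0.125). Its paralogue Eif5a2 had 10.5, 11.1 and 11.9 CPM in 4LPS samples, against 15.17, 11.1 and 14.9 CPM in NS samples (log2 fold change −0.30, SE 0.14, edgeR adjusted p = 0.182). Eif6 had 30.6, 29.3 and 30.6 CPM in 4LPS samples, against 28.8, 35.8 and 28.1 CPM in NS samples (log2 fold change −0.034, SE 0.1, edgeR adjusted p = 0.845). All 3 genes overlapped between groups.

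Summed over the 69 genes, the members took a larger share of the reads in 4LPS, and Eef1a1 alone took 0.661% of counts in 4LPS samples and 0.377% in NS samples. The members held 1.82%, 1.87% and 1.89% of counts in 4LPS samples, against 1.30%, 1.35% and 1.39% in NS samples (1.38-fold, exact two-sided permutation p = 0.1). Without Eef1a1 the share was 1.24-fold higher, so more than that gene moved. The TOP list held 1.30%, 1.34% and 1.37% in 4LPS samples, against 0.775%, 0.819% and 0.847% in NS samples (1.65-fold). The other members held 0.514%, 0.527% and 0.514% in 4LPS samples, against 0.520%, 0.528% and 0.540% in NS samples. By summed share the difference lay in the TOP list. That list was drawn with earlier results of these data known, so this split is a description only. The shares of the other members overlapped between groups (exact two-sided permutation p = 0.2). The summed counts of the TOP list over those of the other members were 2.53, 2.54 and 2.68 in 4LPS samples and 1.49, 1.55 and 1.57 in NS samples. Without Eef1a1 this ratio was 1.29, 1.28 and 1.36 in 4LPS samples and 0.809, 0.841 and 0.825 in NS samples, so it did not rest on that gene.

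**Figure D4:**
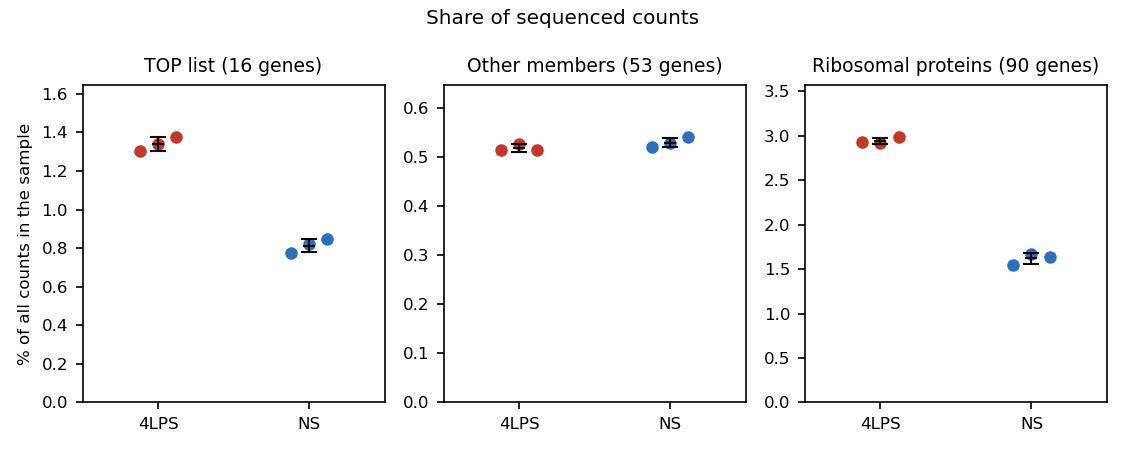
Percent of all counts of a sample taken by the TOP list, by the other members and by the cytosolic ribosomal protein genes, in 4LPS (left) and NS (right), with 1 point per sample and the mean and SD (n = 3 each). Axes differ between panels and start at 0. The TOP list and ribosomal protein points of 4LPS lie above those of NS, while the other members lie between 0.514% and 0.540% in both groups.

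Changes within the TOP list were unequal. The FPKM ratio of Eef1a1 to Eef1b2 was 27.6, 25.4 and 27.02 in 4LPS samples and 31.4, 30.6 and 31.4 in NS samples, so the exchange subunit stood higher relative to the GTPase it serves in every 4LPS sample (exact two-sided permutation p = 0.1). Cytosolic ribosomal protein genes, the main TOP class, took 2.93%, 2.92% and 2.98% of counts in 4LPS samples and 1.55%, 1.67% and 1.64% in NS samples. Of these, 81 of 86 tested were higher (94.2%), with a median log2 fold change of 0.95, above the 0.63 of the TOP list members. The set was taken by symbol and can hold genes outside the core ribosome. The 5 not called were Rpl39l, Rpl37rt, Rps19bp1, Rpl7l1 and Rps27l. The counts of ribosomal protein genes over those of the TOP list were 2.25, 2.18 and 2.17 in 4LPS samples and 2.002, 2.04 and 1.93 in NS samples. The groups did not overlap, so the ribosomal protein genes stood higher relative to the TOP list in every 4LPS sample.

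Other parts of the translation apparatus showed few calls. Of 16 genes of termination, recycling and quality control, 1 was higher and 0 were lower. Abcf1, an ABC protein that works with eIF2, averaged 114 ± 3.27 CPM in 4LPS samples and 92.5 ± 5.64 CPM in NS samples (log2 fold change 0.30, SE 0.058, edgeR adjusted p = 0.0131). Of 10 tested mitochondrial translation factors, 0 were called by edgeR, DESeq2 or limma-voom, and 0 had an unadjusted p under 0.05 by edgeR. Of 6 genes for the eIF2 kinases and the subunits that direct eIF2 dephosphorylation, 0 were called by edgeR, with 1 higher at an unadjusted p under 0.05, and DESeq2 called 1. That gene was the kinase gene Eif2ak2, which encodes PKR, the sensor of double-stranded RNA, and it averaged 65.8 ± 8.16 CPM in 4LPS samples and 52.8 ± 2.07 CPM in NS samples (log2 fold change 0.32, SE 0.092, edgeR adjusted p = 0.0535). Leaving out 1 sample moved these calls, since Abcf1 was not called without 4LPS replicate 3, Nemf was added without NS replicate 3, and Eif2ak2 was called without NS replicate 3 or 4LPS replicate 3. The shares called higher by edgeR over all samples in these lists lay under the 9.95% of all genes.

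Cytosolic aminoacyl-tRNA synthetases, which charge the tRNAs that eEF1A delivers, had 2 genes higher (9.52%) and 3 lower (14.3%) of 21 tested, beside 9.95% higher and 6.43% lower of all tested genes. Leaving out NS replicate 1, or any 1 of the 4LPS replicates, left 1 lower call (Mars1), and without NS replicate 1 there was 1 higher call (Vars). Cars was not called in any of the 6 fits that left out a sample. Vars, for valine, averaged 158 ± 10.9 CPM in 4LPS samples and 100.04 ± 2.66 CPM in NS samples (log2 fold change 0.66, SE 0.06, edgeR adjusted p = 3.45e-04). Qars, for glutamine, averaged 100.3 ± 6.11 CPM in 4LPS samples and 81.4 ± 2.31 CPM in NS samples (log2 fold change 0.30, SE 0.059, edgeR adjusted p = 0.0135). Vars had the largest change of the list, and the other 3 calls were lower in 4LPS. Mars1, for methionine, averaged 70.5 ± 3.13 CPM in 4LPS samples and 87.2 ± 3.54 CPM in NS samples (log2 fold change −0.31, SE 0.058, edgeR adjusted p = 0.0111). Yars, for tyrosine, averaged 57.9 ± 1.03 CPM in 4LPS samples and 69.7 ± 3.59 CPM in NS samples (log2 fold change −0.27, SE 0.057, edgeR adjusted p = 0.0185). Cars, for cysteine, was the last of the 5 calls, at 42.9 ± 2.45 CPM in 4LPS samples and 50.3 ± 1.44 CPM in NS samples (log2 fold change −0.23, SE 0.064, edgeR adjusted p = 0.0467). Of 9 partners of the poly(A) tail and the cap end, 2 were higher (22.2%, beside 9.95% of all tested genes). The count was 1 (Ybx1) without NS replicate 1 or any 1 of the 4LPS replicates, 4 without NS replicate 3, and 0 with limma on log2(FPKM + 1). Ybx1, an mRNA packaging protein, averaged 249.6 ± 11.9 CPM in 4LPS samples and 204 ± 1.73 CPM in NS samples (log2 fold change 0.29, SE 0.047, edgeR adjusted p = 0.00599). Pabpc4, a paralogue of Pabpc1, averaged 68.5 ± 2.84 CPM in 4LPS samples and 56.6 ± 3.09 CPM in NS samples (log2 fold change 0.28, SE 0.063, edgeR adjusted p = 0.0232). Of the 3 TOP mRNAs listed outside the translation factors, 1 was higher (33.3%, beside 9.95% of all tested genes). Nap1l1, a histone chaperone gene, averaged 128 ± 11.3 CPM in 4LPS samples and 89.6 ± 6.19 CPM in NS samples (log2 fold change 0.51, SE 0.079, edgeR adjusted p = 0.00481). Over all samples Hnrnpa1 (edgeR adjusted p = 0.0874) and Vim (edgeR adjusted p = 0.409) were not called. Hnrnpa1 was called as well without NS replicate 3.

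Replicate spread was small for these abundant genes. The median coefficient of variation over the 68 tested members was 4.6% in 4LPS samples and 6.8% in NS samples, beside 7.3% in 4LPS samples and 8.44% in NS samples over all tested genes. Within the TOP list it was 4.21% in 4LPS samples and 7.78% in NS samples. Of the 20 calls, 15 held under each of 20 other ways of fitting the data, and these were the calls of Eef1a1, Eef1b2, Eef1d, Eef1g, Eef2, Eif3e, Eif3f, Eif3h, Eif3k, Eif4b, Eif5b, Npm1, Pabpc1, Rack1 and Tpt1.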

How the data were processed

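RNA-seq was performed on CD11b+ cells of 3 4LPS and 3 NS samples, grouped by the sample labels. Per the labels and the methods, the authors used HISAT2 2.0.4, Bowtie2 2.2.5, RSEM 1.2.8 and DESeq2 1.16.1 on genome build mm39 (the processing notes of the submitters also list mm10), with an annotation that no source used here names. The RSEM values deposited by the authors were expected counts (estimated, not normalized, 2.77% not whole), FPKM values, TPM values and a normalized signal, which was not used. The authors' group means were not used.

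Expected counts were rounded and tested in R 4.3.3 with edgeR 4.0.16 (TMM, filterByExpr, quasi-likelihood F-test, Benjamini-Hochberg over 13151 genes, threshold 0.05), with limma 3.58.1 and DESeq2 1.42.0 as alternatives. Code was tested on simulated data. Single values were compared by exact permutation, which cannot go below p = 0.1 here. The samples are separate pools of 2 mice, so p-values set a group difference against the spread between pools, not between single mice. FPKM fits used log2(FPKM + 1), or a pseudocount of 0.1, for genes with at least 1 FPKM in 3 samples. Other alternatives were other composition factors, filters on low counts, a replicate block, a gene length correction and leaving out each sample, 20 in all. TPM entered as the share of summed TPM.

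Members and gene lists were chosen with earlier results of these data known. Values per sample are given for the 6 added genes, for up to 4 members of each role with the smallest adjusted p, for members called lower (0) and for paralogue pairs. Eif3a and Cars were added after their values were seen. In the other lists, up to 2 genes per direction are named. Old and current synthetase symbols were matched through RefSeq synonyms, and start sites come from RefSeq (GRCm38.p6), matched by gene ID.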

Additional observations from a re-analysis of the deposited data

How the results depend on the processing

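Members called higher numbered 15 to 21 and TOP list genes called higher 13 to 16 over the 20 alternatives, against 20 and 16, and no called member changed sign. Members chosen by symbol alone and called higher numbered 11 to 15, against 14. Members called lower numbered 0 by edgeR, 1 with upper-quartile factors, 1 with the gene length correction, 4 without a composition factor, 4 with limma on log2(FPKM + 1), 4 without its filter and 3 with a pseudocount of 0.1. Without a composition factor the median of the members reversed to −0.0089, and it was 0.0153 with log2(FPKM + 1), with or without the filter, and 0.0156 with a pseudocount of 0.1, against 0.0879. Over all genes 1308 were higher and 845 lower (60.8% higher of the genes called). Without a composition factor 1711 were lower (34.6% higher). With log2(FPKM + 1) 745 were higher and 1369 lower (35.2% higher), without its filter 777 and 1341 (36.7% higher), and with a pseudocount of 0.1 689 were higher (35.6% higher). The cause was not tested. Leaving out 1 sample gave 781 to 1629 higher genes, 363 to 1215 lower genes, and a median of the members of 0.1016 to 0.1313. The fewest higher genes came without NS replicate 1 and the fewest lower genes without 4LPS replicate 2. The share of counts of the members was 1.38-fold higher in 4LPS, and 1.24-fold without Eef1a1.

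Btf3 was called in 8 of 20 alternatives (adjusted p 0.00205 to 0.172 over edgeR, DESeq2 and limma), Eif2s3x in 4 (0.0451 to 0.312), Eif4g1 in 14 (2.53e-04 to 0.133), and Eif3a and Naca in 18 each. Eif4a2 (edgeR adjusted p = 0.0309) and Eif5 (0.00585) were also called without NS replicate 3, Eif4ebp2 (0.0288) and Eif3i (0.0428) without NS replicate 2, and Eif2s3y (0.0459) without 4LPS replicate 1. Deviations of same-numbered samples correlated at 0.473, −0.262 and 0.066. With 3 samples per group, these values cannot show whether sample numbers pair the groups. With a replicate block 19 members and 16 TOP list genes were higher, and with the gene length correction as well 18 and 15. Low counts limit what can be said of Eef1a2, Eif4ebp3 and the methyltransferase genes.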
